A study of Mus musculus with 6 samples.

Results

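Cholesterol in the liver is made from acetyl-CoA, taken up from lipoproteins, stored as ester and exported, and 31 genes of these routes were followed here through 6 mouse liver libraries. They were chosen by name and role, as genes of the SREBP2 control system, enzymes of cholesterol synthesis, and genes of sterol uptake, transport, esterification and efflux. All 31 were among the 16135 genes of the table. The 3 ACSS2-HKO libraries came from mice labelled as lacking ACSS2 in hepatocytes, and the 3 ACSS2-flox libraries from mice labelled as carrying the floxed gene. All animals, controls included, received ethanol in the Lieber-Decarli liquid diet over 10 days and then 1 binge of ethanol, so no library shows the liver without alcohol. Cre driver, strain, sex and age are not stated in the labels. Nor do they say whether each library is a different mouse, so p-values measure only the spread between these libraries, which may be technical.

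ACSS2 makes acetyl-CoA from acetate in cytosol and nucleus, and acetate is what the liver makes from ethanol. Acetyl-CoA is the carbon source of the sterol pathway. When sterols are scarce in the endoplasmic reticulum, SCAP carries the precursor of the transcription factor SREBP2 to the Golgi, where it is cleaved and released to switch on the genes of cholesterol synthesis. INSIG proteins hold SCAP back when sterols are plentiful, and sterol surplus activates the LXR receptors, which induce efflux genes and restrain uptake.

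Values are FPKM, the fragments of a gene per kilobase of its length and scaled to the total of the library, as computed by the authors. Because FPKM is a share of a library and is divided by length, levels of different genes can be set side by side. This holds less well in ACSS2-flox replicate 1, where long genes read low and short genes high. Whole fragment counts could be recovered from the values and gave library totals of 33717125 to 39474527. The thinnest member value, that of Soat1 in ACSS2-flox replicate 1, rested on 113 fragments, for which counting alone gives a relative error of 9.41%. In bulk liver, fewer cells of a type and less RNA per cell cannot be told apart.

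Acss2 itself (chromosome 2, 155518043 to 155562743, GRCm38) read 50.6, 38.4 and 45.7 FPKM in ACSS2-HKO and 87.8, 61.5 and 58.5 FPKM in ACSS2-flox, without overlap. The fitted log2 fold change came to -0.60 ± 0.21 (SE) with a limma adjusted p of 0.637. The ratio of means was 0.648. The value covers the whole gene and liver cells of all types, so it does not show how far Acss2 was lost in hepatocytes. ACSS2-flox replicate 1 stood apart from the other libraries, and ACSS2-HKO replicate 3 did so to a smaller degree. On the first principal component, which held 47.2% of the variance, they lay at -47.7 and 27.6, with the other 4 libraries between 2.51 and 8.49. In ACSS2-flox replicate 1 the longest 10% of genes read 0.55 lower on the log2 scale than in the mean of the other ACSS2-flox libraries, and the shortest 10% read 0.28 higher. Hepatocyte markers were high in all libraries, with summed levels of 56694 to 67248 FPKM in ACSS2-HKO and 64805 to 99114 FPKM in ACSS2-flox, and Alb alone read 38187 to 59759 FPKM.

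Most genes of cholesterol synthesis read lower in ACSS2-HKO than in ACSS2-flox, while both efflux genes and the HDL receptor gene Scarb1 read higher. Log2 fold changes were also positive in 6483 of the 9818 tested genes. The groups overlapped for both efflux genes, and Abca1 was at -0.0122 without ACSS2-flox replicate 1. None of the differences among members passed the test. In the limma test on log2(FPKM + 1), the adjusted threshold of 0.05 was passed by 0 of 31 members upward and 0 downward, against 0% of the 9818 genes averaging 1 FPKM or more. All 31 members were among these genes. The smallest adjusted p of a member was 0.637, and that of any gene 0.452. At an unadjusted p under 0.05, 1 member was higher (3.23%, against 6.09% of all tested genes) and 3 were lower (9.68%, against 1.5%). By voom on the recovered fragments the adjusted counts were also 0 over all genes, and at the unadjusted threshold 0 members were higher, against 5.71% of all tested genes, and 3 lower (9.68%, against 1.4%). The groups did not overlap for the same 4 members, 1 higher (3.23%, against 12.5% of all tested genes) and 3 lower (9.68%, against 2.94%). Scaling moved the backgrounds. With median-ratio scaling 3.23% of all tested genes were higher and 3.53% lower at the unadjusted threshold, with 0 and 3 members, and 7.65% of genes were lower without overlap, against 12.9% of members. Over the 31 members the median log2 fold change was -0.31, with 22 negative, against a median of 0.10 over all tested genes, of which 34% were negative. The median of the members was -0.10 without ACSS2-flox replicate 1 and -0.53 without ACSS2-flox replicate 3. Scaling by median ratios shifted the median of all genes to -0.04 and that of the members to -0.48.

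**Figure D1:**
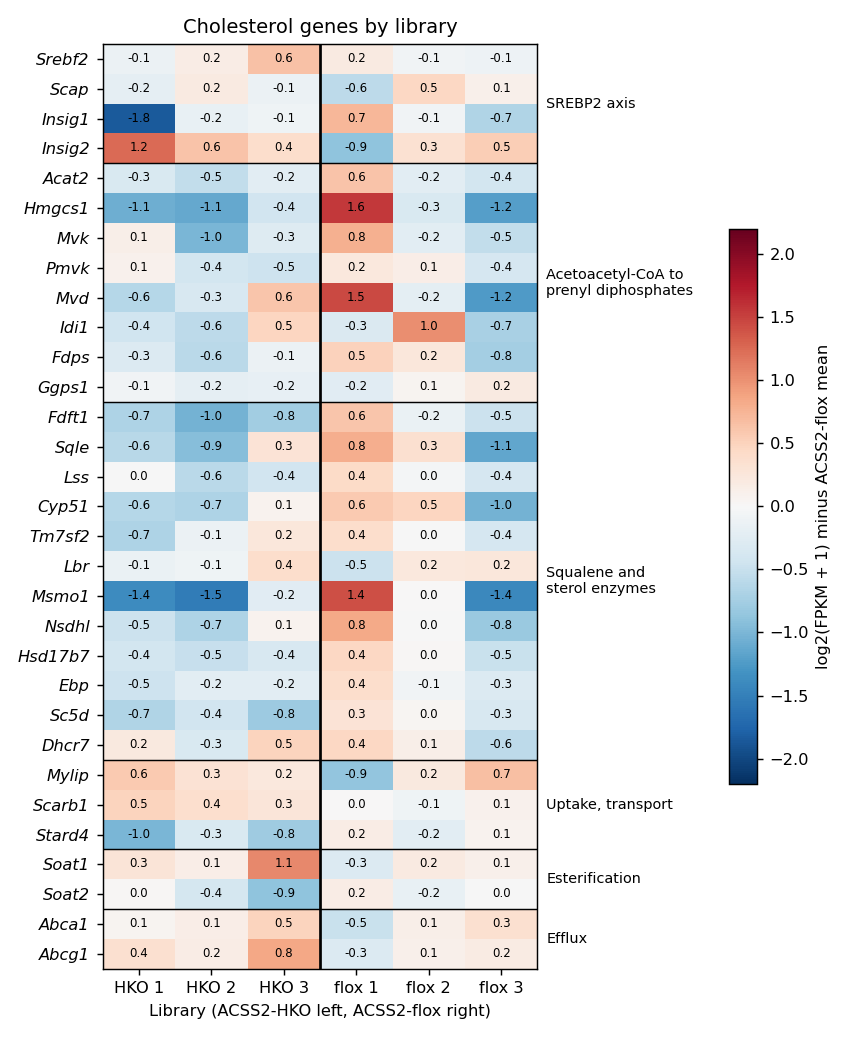
Each cell gives log2(FPKM + 1) of a gene in a library minus the ACSS2-flox mean of that gene, with the 3 ACSS2-HKO libraries left and the 3 ACSS2-flox libraries right of the line. Among the enzymes ACSS2-flox replicate 1 is mostly red and ACSS2-flox replicate 3 mostly blue, and 18 of 20 enzymes have a negative log2 fold change.

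The SREBP2 control genes split by direction, 2 positive and 2 negative. Srebf2, which encodes the transcription factor (chromosome 15, 82147269 to 82205379), read 5.82, 7.37 and 10.7 FPKM in ACSS2-HKO and 7.59, 6.03 and 5.88 FPKM in ACSS2-flox. The groups overlapped, with ACSS2-HKO replicate 3 highest and ACSS2-HKO replicate 1 lowest of all 6, and the log2 fold change was 0.23 ± 0.23 (SE). Scap, which encodes the sterol-sensing escort of SREBP2, read 22.8, 30.4 and 24.0 FPKM in ACSS2-HKO and 17.5, 36.9 and 28.6 FPKM in ACSS2-flox. All ACSS2-HKO values of Scap lay within the ACSS2-flox range, and its log2 fold change was -0.05 ± 0.27 (SE).

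The INSIG genes read in opposite directions in the libraries at the extremes. Insig1 (chromosome 5, 28071412 to 28078662), whose product retains SCAP in the endoplasmic reticulum and which is itself an SREBP target, read 18.1, 60.1 and 62.8 FPKM in ACSS2-HKO and 113, 64.3 and 42.3 FPKM in ACSS2-flox. Insig2 (chromosome 1, 121304353 to 121332662), which encodes the second SCAP-retaining protein and is known in mouse liver as a gene lowered by insulin, read 38.3, 24.7 and 20.7 FPKM in ACSS2-HKO and 7.95, 19.9 and 23.2 FPKM in ACSS2-flox. ACSS2-HKO replicate 1 had the lowest Insig1 and the highest Insig2 of all libraries, and ACSS2-flox replicate 1 had the highest Insig1 and the lowest Insig2. The ratio of Insig1 to Insig2 FPKM was 0.473, 2.44 and 3.04 in ACSS2-HKO and 14.2, 3.24 and 1.83 in ACSS2-flox, with overlap between the groups. Insig1 was counted over 2648 bases and Insig2 over 6875 bases. In ACSS2-flox replicate 1 long genes read low, so the ratio of 14.2 there is less certain. The log2 fold changes of Insig1 and Insig2 were -0.70 ± 0.51 and 0.76 ± 0.39 (SE), with limma adjusted p of 0.752 and 0.67. Without ACSS2-flox replicate 1 they were -0.337 and 0.317, and Insig1 read -0.134 without ACSS2-HKO replicate 1.

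The 8 enzyme genes from acetoacetyl-CoA to the prenyl diphosphates all had negative log2 fold changes, centred on -0.30, which is -0.40 once the median of all tested genes is subtracted. The groups of all 8 overlapped, whereas 15.5% of all tested genes were without overlap, and 0 passed limma in either direction. Hmgcs1 (chromosome 13, 119690351 to 119708260), which encodes the synthase that makes HMG-CoA, read 24.8, 24.1 and 39.7 FPKM in ACSS2-HKO and 159, 42.1 and 22.6 FPKM in ACSS2-flox. ACSS2-flox replicate 1 alone stood far above the rest and ACSS2-flox replicate 3 was the lowest of all 6. The log2 fold change of Hmgcs1 was -0.88 ± 0.60 (SE, limma adjusted p = 0.739), -0.102 without ACSS2-flox replicate 1 and -1.48 without ACSS2-flox replicate 3. Acat2, which encodes the cytosolic thiolase that joins acetyl-CoA units in the opening step, read 20.7, 17.8 and 22.1 FPKM in ACSS2-HKO and 41.1, 22.3 and 19.6 FPKM in ACSS2-flox. Its transcript matches that of Acat3 at 97.7% identity over 1477 bases, so the division of fragments between these genes is uncertain. Acat3 read 85.4 ± 2.69 FPKM in ACSS2-HKO and 90.1 ± 29.6 FPKM in ACSS2-flox (SD, n = 3 each).

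The other 6 genes of this stretch had ratios of means between 0.701 for Mvd and 0.834 for Ggps1. Pmvk, which encodes phosphomevalonate kinase, read 10.7, 7.35 and 6.99 FPKM in ACSS2-HKO and 11.9, 11.2 and 7.49 FPKM in ACSS2-flox. The lowest Pmvk value of ACSS2-flox lay inside the ACSS2-HKO range. Mevalonate kinase, encoded by Mvk, averaged 6.49 ± 2.80 and the decarboxylase gene Mvd averaged 6.17 ± 3.43 FPKM in ACSS2-HKO, against 9.09 ± 5.16 and 8.80 ± 9.0 FPKM in ACSS2-flox (SD, n = 3 each). Mvd had the widest spread of any member among the ACSS2-flox libraries, a 9.23-fold range, and a 2.73-fold range in ACSS2-HKO. Idi1, whose product isomerizes the C5 prenyl units, read 6.94, 6.26 and 14.02 FPKM in ACSS2-HKO and 7.68, 20.9 and 5.61 FPKM in ACSS2-flox. Unlike its neighbours in the pathway it was highest in ACSS2-flox replicate 2, and its log2 fold change of -0.18 turned to 0.33 without that library. Fdps, which encodes farnesyl diphosphate synthase, averaged 86.6 ± 13.6 FPKM in ACSS2-HKO and 117 ± 47.0 FPKM in ACSS2-flox (SD, n = 3 each). Fdps has 4 processed pseudogenes in the GENCODE annotation at 95% identity or more, and Idi1 has 2. Fdps also shares 1124 exon bases on the same strand with the protein-coding gene Gm43738, so the counts of Fdps and Idi1 are uncertain. Ggps1, on the branch to geranylgeranyl diphosphate used in protein prenylation, was the lowest enzyme gene, with 1.49 ± 0.104 FPKM in ACSS2-HKO and 1.78 ± 0.419 FPKM in ACSS2-flox (SD, n = 3 each).

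Of the 12 genes for squalene and sterol enzymes, 10 had negative log2 fold changes, centred on -0.38, which is -0.48 after the same subtraction. Fdft1 and Sc5d were lower without overlap (16.7%, against 2.94% of all tested genes), and 0 genes passed limma after adjustment. Fdft1 (chromosome 14, 63145150 to 63181687), which encodes squalene synthase at the step that commits carbon to sterols, read 9.89, 7.53 and 9.33 FPKM in ACSS2-HKO and 25.9, 14.8 and 11.7 FPKM in ACSS2-flox. Every ACSS2-HKO library lay below every ACSS2-flox library. The means were 8.92 ± 1.23 and 17.4 ± 7.46 FPKM (SD, n = 3 each), 0.511 times the control level. On the log2 scale the fold change was -0.83 ± 0.28 (SE, limma adjusted p = 0.637, exact permutation p = 0.1, the smallest that 3 against 3 allows). It was -0.519 without ACSS2-flox replicate 1, and over the alternatives its adjusted p ran from 0.417 to 1. The exons of Fdft1 share 774 bases with the cathepsin B gene Ctsb on the other strand, and whether the counting used strand is not stated in the labels. Ctsb read 540, 537 and 764 FPKM in ACSS2-HKO and 391.9, 513 and 493 FPKM in ACSS2-flox, the opposite direction to Fdft1. Fdft1 also matches the processed pseudogene Gm6781 at 97.4% identity over 1249 bases, so its count is uncertain.

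Sc5d (chromosome 9, 42251592 to 42264300), which encodes the desaturase that introduces the C5 double bond of the sterol ring, read 83.1, 98.6 and 74.9 FPKM in ACSS2-HKO and 163, 135 and 104 FPKM in ACSS2-flox. The groups did not overlap, though the highest ACSS2-HKO library came close to the lowest ACSS2-flox library. The means of 85.6 ± 12.04 and 134 ± 29.6 FPKM (SD, n = 3 each) were in a ratio of 0.639. The fitted log2 fold change came to -0.63 ± 0.22 (SE, limma adjusted p = 0.637, exact permutation p = 0.1), with values from -0.797 to -0.474 when each library was dropped in turn. Its unadjusted p was 0.0198, and the adjusted p ran from 0.508 to 1 over the alternatives. Among the 12 squalene and sterol enzyme genes Sc5d was second in level to Ebp, which encodes the sterol isomerase and averaged 114 ± 9.88 FPKM in ACSS2-HKO and 144 ± 35.8 FPKM in ACSS2-flox (SD, n = 3 each).

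Msmo1 (chromosome 8, 64718123 to 64733578), which encodes the oxidase that starts removal of the C4 methyl groups, had the largest log2 fold change of the 31 members in size, -1.05 ± 0.65 (SE, limma adjusted p = 0.711). It read 13.8, 12.3 and 31.5 FPKM in ACSS2-HKO and 102, 37.6 and 13.4 FPKM in ACSS2-flox. ACSS2-flox replicate 3 was as low as the lower ACSS2-HKO libraries, so the groups overlapped. Its fold change on the log2 scale was -0.343 with ACSS2-flox replicate 1 removed and -1.76 with ACSS2-flox replicate 3 removed. Hsd17b7, which encodes the sterone reductase of the same demethylation, read 4.95, 4.55 and 5.14 FPKM in ACSS2-HKO and 9.74, 7.05 and 4.63 FPKM in ACSS2-flox. Nsdhl, the decarboxylating dehydrogenase gene between these steps, averaged 28.0 ± 8.12 FPKM in ACSS2-HKO and 39.3 ± 22.4 FPKM in ACSS2-flox (SD, n = 3 each).

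The squalene epoxidase gene Sqle, the lanosterol synthase gene Lss and the lanosterol demethylase gene Cyp51 had log2 fold changes of -0.41, -0.34 and -0.41. Sqle read 11.9, 9.37 and 23.5 FPKM in ACSS2-HKO and 33.5, 24.2 and 7.94 FPKM in ACSS2-flox. Cyp51 read 23.4, 22.5 and 38.8 FPKM in ACSS2-HKO and 55.3, 51.2 and 17.4 FPKM in ACSS2-flox. For both, ACSS2-flox replicates 1 and 2 were high and ACSS2-flox replicate 3 was the lowest of all 6. With ACSS2-flox replicate 3 left out the value of Sqle was -0.989 and that of Cyp51 -0.933. Without ACSS2-flox replicate 1 they were -0.0141 and -0.126. Tm7sf2 and Lbr both encode enzymes that can reduce the C14 double bond. Tm7sf2 averaged 59.2 ± 18.5 FPKM in ACSS2-HKO and 66.9 ± 17.8 FPKM in ACSS2-flox, and Lbr, also a protein of the nuclear envelope, 3.15 ± 0.884 and 3.06 ± 1.051 FPKM (SD, n = 3 each). Per length, Tm7sf2 thus stood well above Lbr in every library. Dhcr7, whose product makes cholesterol from 7-dehydrocholesterol, read 21.2, 14.03 and 25.6 FPKM in ACSS2-HKO and 24.9, 19.7 and 11.8 FPKM in ACSS2-flox. The log2 fold changes of Lbr (0.05) and Dhcr7 (0.12) were the positive ones, and both turned negative with median-ratio scaling.

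**Figure D2:**
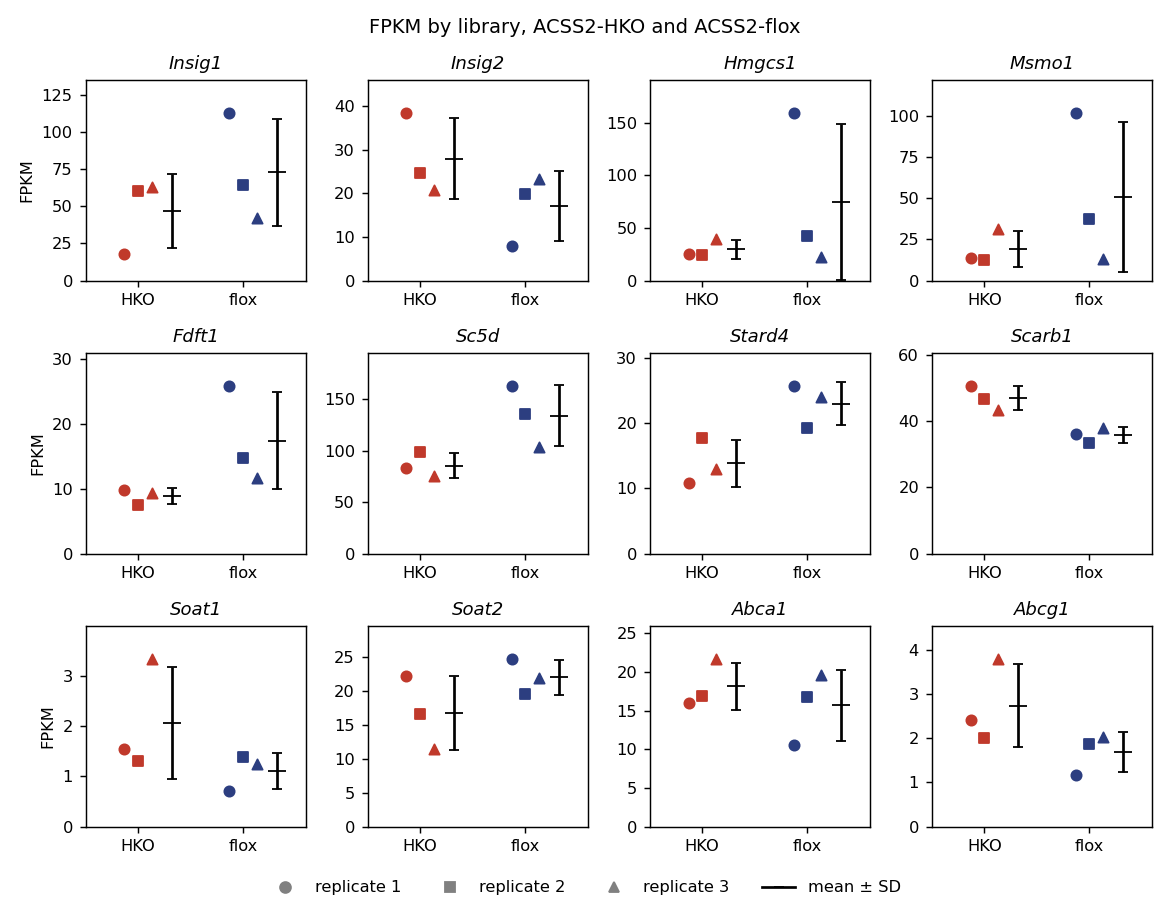
Each panel plots the FPKM of 1 gene in the 3 ACSS2-HKO libraries (red, left) and the 3 ACSS2-flox libraries (blue, right), with the mean and SD of each group as black bars and replicates by symbol. Fdft1, Sc5d and Stard4 lie lower and Scarb1 higher in ACSS2-HKO without overlap, while Hmgcs1 and Msmo1 differ mainly by ACSS2-flox replicate 1.

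Most enzyme genes ranked the control libraries alike. ACSS2-flox replicate 1 had the highest value of all 6 libraries in 16 of 20 enzyme genes (80%), against 15.7% of all tested genes. ACSS2-flox replicate 3 had the lowest ACSS2-flox value in 18 of 20, against 12% of all tested genes. In 17 of 20 enzyme genes the ACSS2-flox libraries ranked as replicate 1, replicate 2 and replicate 3 from high to low, against 8.2% of all tested genes. Centred on the ACSS2-flox mean, the median enzyme lay at -0.45, -0.55 and -0.21 in ACSS2-HKO replicates 1, 2 and 3. It was 0.48, 0.02 and -0.51 in ACSS2-flox replicates 1, 2 and 3. ACSS2-HKO replicates 1 and 3 thus lay between the highest and lowest control, and ACSS2-HKO replicate 2 just below the lowest. The highest value exceeded the lowest 1.64-fold among ACSS2-HKO libraries and 2.16-fold among ACSS2-flox libraries in the median enzyme gene, against 1.33-fold and 1.58-fold in the median tested gene. The spread on the log2 scale was wider in ACSS2-flox than in ACSS2-HKO for 19 of 20 enzymes and for 67.2% of all tested genes.

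The median log2 fold change of the 20 enzymes was -0.35 with all libraries, with 18 of 20 negative. It was -0.124 with 15 of 20 negative without ACSS2-flox replicate 1, and -0.661 with 19 of 20 negative without ACSS2-flox replicate 3. After a correction for gene length it was -0.46 with 20 of 20 negative. Of all tested genes 34% were negative with all libraries and 47.8% without ACSS2-flox replicate 1. The share was 27.3% without ACSS2-flox replicate 3 and 52.2% after the length correction. Hepatocyte markers were divided in ACSS2-flox replicate 1. Of the 10 markers 6, among them Alb, Ttr and Apoa1, were highest of the ACSS2-flox libraries there, and 3, Cps1, Hnf4a and Tat, were lowest. The list median was 0.37 above the ACSS2-flox mean, and the summed level of 99114 FPKM, of which Alb made up 59759 FPKM, stood against 70632 and 64805 FPKM in ACSS2-flox replicates 2 and 3. In that library sinusoidal endothelial markers summed to 57.5 FPKM, against 208 and 248 FPKM in the other ACSS2-flox libraries and 161 to 191 FPKM in ACSS2-HKO. Their part in the enzyme values was not tested.

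**Figure D3:**
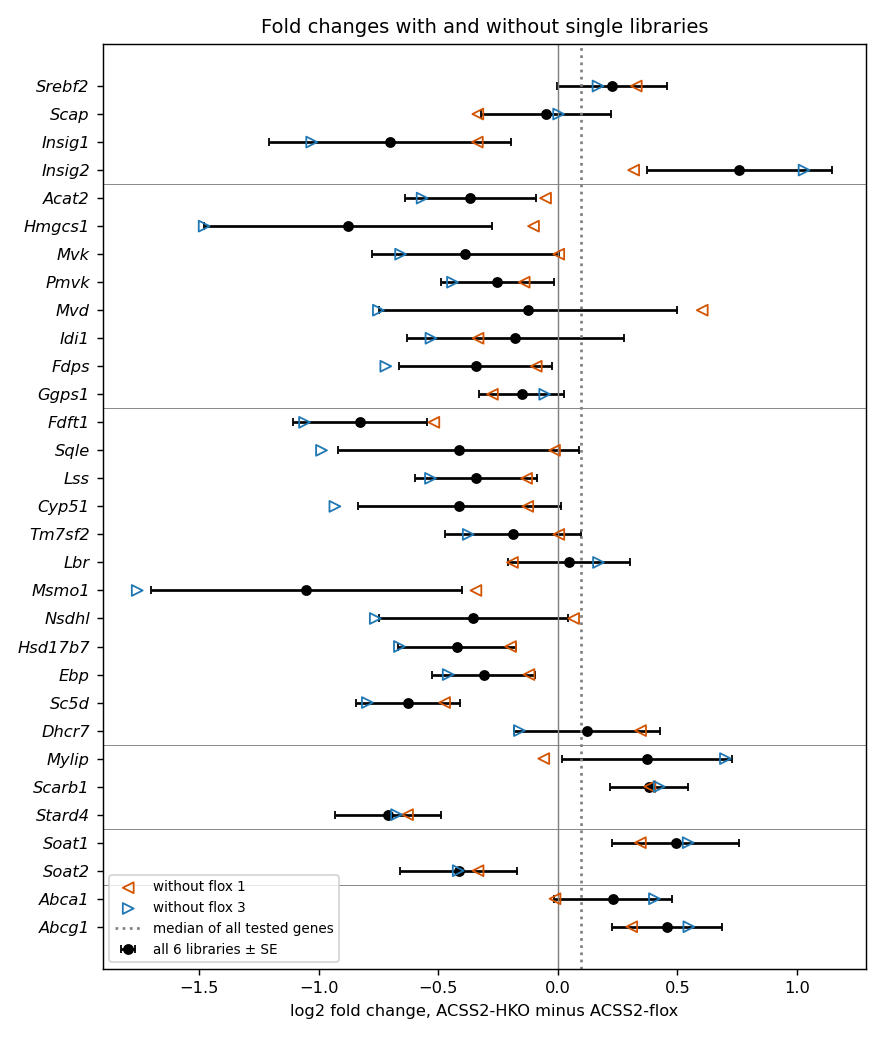
Points give the log2 fold change of each member, ACSS2-HKO minus ACSS2-flox, on log2(FPKM + 1), with bars of 1 SE, and open triangles give it without ACSS2-flox replicate 1 or replicate 3. For most enzymes the triangles lie on opposite sides of the full value, as for Hmgcs1 at -0.102 and -1.48, whereas those of Stard4 and Scarb1 lie near it.

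Promoter sequences of the genes with the widest swings are shown because SREBP2 acts on sterol regulatory elements together with the CCAAT-binding factor NF-Y. The sequences are the 250 bases before the annotated start from RefSeq (GRCm38.p6), 5′ to 3′ on the gene's strand, and lie at chr13:119690101-119690350 for Hmgcs1 (plus strand), chr8:64733579-64733828 for Msmo1 (minus), chr8:122443423-122443672 for Mvd (minus) and chr5:28071162-28071411 for Insig1 (plus). Capitals mark matches on either strand to TCACNCCAC, a form of the sterol regulatory element, and to CCAAT, which reads ATTGG on the other strand.
Hmgcs1: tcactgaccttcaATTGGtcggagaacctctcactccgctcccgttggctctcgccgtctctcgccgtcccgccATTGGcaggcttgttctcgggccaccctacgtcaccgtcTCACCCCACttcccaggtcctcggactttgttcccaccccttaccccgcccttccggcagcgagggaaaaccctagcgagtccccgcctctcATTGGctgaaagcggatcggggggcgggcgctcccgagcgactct
Msmo1: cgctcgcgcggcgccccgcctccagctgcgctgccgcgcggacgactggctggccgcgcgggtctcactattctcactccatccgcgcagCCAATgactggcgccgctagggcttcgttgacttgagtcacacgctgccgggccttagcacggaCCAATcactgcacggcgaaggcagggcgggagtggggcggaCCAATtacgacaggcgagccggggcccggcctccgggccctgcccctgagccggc
Mvd: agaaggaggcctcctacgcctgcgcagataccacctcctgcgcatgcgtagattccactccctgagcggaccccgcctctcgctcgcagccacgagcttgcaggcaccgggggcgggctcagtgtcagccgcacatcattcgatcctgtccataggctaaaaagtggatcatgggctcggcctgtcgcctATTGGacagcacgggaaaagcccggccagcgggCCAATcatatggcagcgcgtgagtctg
Insig1: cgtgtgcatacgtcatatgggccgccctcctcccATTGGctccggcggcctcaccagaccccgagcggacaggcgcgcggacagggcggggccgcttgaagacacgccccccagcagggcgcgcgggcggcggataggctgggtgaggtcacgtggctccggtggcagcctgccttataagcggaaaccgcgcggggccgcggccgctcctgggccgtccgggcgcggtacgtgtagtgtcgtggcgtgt
Hmgcs1 held 1 match to TCACNCCAC and 3 to CCAAT, Msmo1 3 to CCAAT, Mvd 2 and Insig1 1. Of the 31 members, 24 matched a promoter by symbol, and CCAAT was found in 21 of them (87.5%), against 37.5% of all 27025 genes with a promoter sequence. These 27025 are more than the 16135 genes measured here, and the share among genes read in liver was not computed. Fdft1, Sqle, Fdps, Scarb1, Stard4, Soat2 and Abcg1 had no matched promoter. Among the 17 enzyme genes with a promoter CCAAT was found in 16 (94.1%). TCACNCCAC was found in 1 of the 24, that of Hmgcs1, against 1.22% of all genes. A gene counted as holding a motif if any of its listed starts did, and in these 4 sequences the motifs do not overlap each other. A match is a description of letters and not of binding.

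Genes of sterol uptake and transport split by direction. Scarb1 (chromosome 5, 125277087 to 125341094), which encodes the HDL receptor SR-BI that takes up cholesteryl ester into hepatocytes, read 50.5, 46.6 and 43.3 FPKM in ACSS2-HKO and 35.9, 33.3 and 38.0 FPKM in ACSS2-flox. All ACSS2-HKO libraries were above all ACSS2-flox libraries, and both groups were tight, at 46.8 ± 3.62 and 35.7 ± 2.36 FPKM (SD, n = 3 each). The ratio of means was 1.31, and the fitted log2 fold change 0.38 ± 0.16 (SE, limma adjusted p = 0.649, exact permutation p = 0.1). Dropping each library in turn gave 0.325 to 0.434, and the adjusted p ran from 0.491 to 1 over the alternatives. With median-ratio scaling the groups overlapped and Scarb1 no longer met the unadjusted threshold.

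Stard4, which encodes a soluble protein that carries sterol between membranes and is a known SREBP2 target, read 10.8, 17.8 and 12.9 FPKM in ACSS2-HKO and 25.6, 19.2 and 24.0 FPKM in ACSS2-flox. Every ACSS2-HKO library was below every ACSS2-flox library. The means of 13.8 ± 3.59 and 22.9 ± 3.32 FPKM (SD, n = 3 each) were in a ratio of 0.602. The fitted log2 fold change of -0.71 ± 0.22 (SE) had the smallest unadjusted p of the members, 0.0114, with a limma adjusted p of 0.637 and an exact permutation p of 0.1. Dropping each library in turn gave -0.895 to -0.558, and the adjusted p ran from 0.467 to 1 over the alternatives. Stard4 did not follow the ranking of the enzymes among the controls, since ACSS2-flox replicate 3 read 24.0 FPKM, close to ACSS2-flox replicate 1. Mylip, an LXR target whose product IDOL marks lipoprotein receptors for degradation, read 8.23, 6.71 and 6.32 FPKM in ACSS2-HKO and 2.41, 6.19 and 8.77 FPKM in ACSS2-flox. All ACSS2-HKO values of Mylip lay within the ACSS2-flox range, and its log2 fold change of 0.37 ± 0.36 (SE) was -0.0591 without ACSS2-flox replicate 1.

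The esterification genes read in opposite directions. Soat1, the acyltransferase gene used by most cell types including macrophages, read 1.54, 1.30 and 3.33 FPKM in ACSS2-HKO and 0.70, 1.38 and 1.24 FPKM in ACSS2-flox. Soat2, the form of hepatocytes and enterocytes that makes cholesteryl ester for lipoproteins, read 22.3, 16.6 and 11.4 FPKM in ACSS2-HKO and 24.7, 19.5 and 21.9 FPKM in ACSS2-flox. ACSS2-HKO replicate 3 had both the highest Soat1 and the lowest Soat2 of all libraries. The log2 fold changes were 0.49 ± 0.27 for Soat1 and -0.42 ± 0.25 for Soat2 (SE), with limma adjusted p of 0.68 and 0.697. Without ACSS2-HKO replicate 3 they were 0.212 and -0.18.

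Both efflux genes had positive log2 fold changes. Abca1 (chromosome 4, 53030789 to 53159988), which encodes the transporter that loads cholesterol onto apolipoprotein A-I, read 16.0, 16.9 and 21.6 FPKM in ACSS2-HKO and 10.6, 16.8 and 19.6 FPKM in ACSS2-flox. Abcg1, whose product moves sterol to HDL and is abundant in macrophages, read 2.40, 1.995 and 3.78 FPKM in ACSS2-HKO and 1.17, 1.87 and 2.03 FPKM in ACSS2-flox. The groups overlapped for both, with ACSS2-HKO replicate 3 highest and ACSS2-flox replicate 1 lowest. The log2 fold changes were 0.23 ± 0.25 and 0.46 ± 0.23 (SE), with limma adjusted p of 0.847 and 0.67. Without ACSS2-flox replicate 1 the value of Abca1 was -0.0122. Abcg1 was at 0.261 without ACSS2-HKO replicate 3 and at 0.115 without both of these libraries, where Abca1 was at -0.139.

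The summed level of Kupffer cell and macrophage markers had the same highest and lowest library as Soat1, Abca1 and Abcg1. All 12 markers of the list, among them Clec4f, Vsig4 and Marco, had positive log2 fold changes, and their summed level was 755, 700 and 1734 FPKM in ACSS2-HKO and 377, 591 and 502 FPKM in ACSS2-flox. The sum was highest in ACSS2-HKO replicate 3 and lowest in ACSS2-flox replicate 1, though single markers such as Timd4 and C1qa were lowest in ACSS2-flox replicate 3. Of all tested genes, 21.3% were highest of all 6 in ACSS2-HKO replicate 3, and 61.9% had their lowest control value in ACSS2-flox replicate 1. ACSS2-HKO replicate 1 was second highest for the marker sum and also for Soat1 and Abcg1, but second lowest for Abca1. None of the 12 was at 0 in any library. By list median, stellate cell and fibroblast markers were also highest in ACSS2-HKO replicate 3 (0.76 from the ACSS2-flox mean) and lowest in ACSS2-flox replicate 1 (-0.32). Their summed level was instead highest in ACSS2-HKO replicate 1. Neutrophil markers summed to 39.6, 55.6 and 362 FPKM in ACSS2-HKO and 18.0, 14.6 and 8.39 FPKM in ACSS2-flox. Of the 10 neutrophil markers, 2 were at 0 in at least 1 library, and the neutrophil-defining Ly6g was at 0 in all ACSS2-flox libraries. The part of these cells in the values of Soat1, Abca1 and Abcg1 was not tested.

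**Figure D4:**
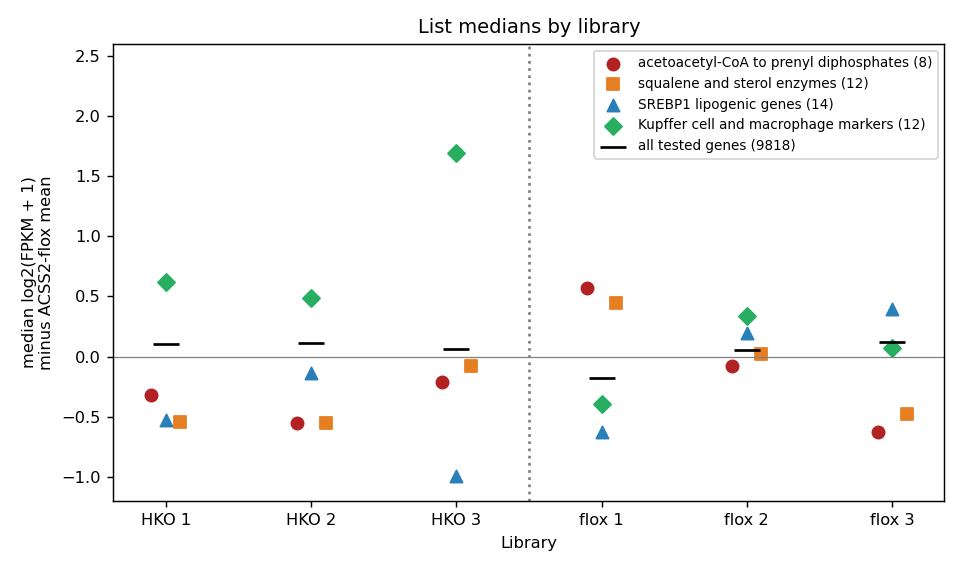
Each symbol is the median over a gene list of log2(FPKM + 1) minus the ACSS2-flox mean in 1 library, with ACSS2-HKO libraries left of the dotted line, the number of tested genes in brackets and all tested genes as bars. The enzyme lists reach 0.57 and 0.45 in ACSS2-flox replicate 1, where the SREBP1 lipogenic list is at -0.63.

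A wider set of cholesterol genes showed no common direction. Of 44 listed genes 42 passed the filter on low values, 23 positive and 19 negative by log2 fold change, centred on 0.04, below the 0.10 of all genes. None passed limma after adjustment in either direction, and 3 did at the unadjusted threshold (7.14%, against 7.59% of all tested genes). The groups did not overlap for 8 of the 42 (19%, against 15.5% of all tested genes). Of these 5 were higher, against 12.5% of all tested genes, and 3 lower, against 2.94%. The 9 genes that supply acetyl-CoA and electrons all had negative log2 fold changes, with a median of -0.38. Aacs, which encodes the synthetase that feeds acetoacetate into the sterol route, read 11.4, 16.0 and 10.5 FPKM in ACSS2-HKO and 14.2, 30.3 and 31.2 FPKM in ACSS2-flox (log2 fold change -0.89 ± 0.31 SE, limma adjusted p = 0.637). The mitochondrial citrate carrier gene Slc25a1 read 136, 152 and 111 FPKM in ACSS2-HKO and 175, 173 and 168 FPKM in ACSS2-flox, without overlap. Cyb5r3, an electron donor gene for sterol oxidases, averaged 183 ± 21.3 FPKM in ACSS2-HKO and 226 ± 19.9 FPKM in ACSS2-flox (SD, n = 3 each), also without overlap.

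Hepatic lipase, encoded by Lipc, acts on circulating HDL, and its gene read 60.3, 66.9 and 50.3 FPKM in ACSS2-HKO and 96.5, 96.3 and 71.5 FPKM in ACSS2-flox. The groups of Lipc did not overlap, with a log2 fold change of -0.56 ± 0.20 (SE, limma adjusted p = 0.637). Genes with the smallest p in the upward direction were Dhdds and Nus1, whose products make dolichol precursors together, the lysosomal sterol carrier gene Npc2 and the ester hydrolase gene Nceh1. Dhdds read 8.39, 8.36 and 9.42 FPKM in ACSS2-HKO and 5.69, 6.44 and 6.82 FPKM in ACSS2-flox, and the other 3 had log2 fold changes of 0.31, 0.32 and 0.25. The isoprenoid branch genes, to which Dhdds and Nus1 belong, had positive log2 fold changes in 7 of 8 tested members, against 6483 of the 9818 tested genes. Their median was 0.21, which is 0.11 once the median of all tested genes is subtracted. The enzymes that supply their substrate had negative values. The difference between these lists was not tested.

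The SREBP1 lipogenic genes had negative log2 fold changes in 13 of 14 members, with a median of -0.61, but they ranked the control libraries otherwise than the sterol enzymes did. Centred on the ACSS2-flox mean, the median lipogenic gene lay at -0.53, -0.14 and -0.99 in ACSS2-HKO replicates 1, 2 and 3. It was -0.63, 0.19 and 0.40 in ACSS2-flox replicates 1, 2 and 3. By this median ACSS2-flox replicate 1, the highest library for the sterol enzymes, was the lowest control. It was also the lowest control for 61.9% of all tested genes, whose median lay at -0.18 there. Elovl5, Fads1 and Pnpla3 instead had their highest control value in that library. None of the 14 passed limma after adjustment, and 3, all lower, did at the unadjusted threshold (21.4%, against 1.5% of all tested genes lower and 7.59% in either direction).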

How the data were processed

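Liver RNA of 6 mouse libraries, 3 ACSS2-HKO and 3 ACSS2-flox, was sequenced from VAHTS Universal V6 libraries, per the labels' protocols, and grouped by the genotype label. The authors deposited 1 table of FPKM values for 16135 genes. The submitters' processing notes name mm10 and DESeq2 without roles, and aligner, counter, annotation, strand use and filters are not stated there. FPKM values are shares of a total, so a rise of a few abundant genes lowers all others. Fragment counts were recovered by solving for whole counts and whole gene lengths in all libraries (within 0.01 of a whole number), for 16127 genes, and the search was checked on data with known counts. Tests used limma 3.58.1 in R 4.3.3 (lmFit, eBayes with a mean-variance trend) on log2(FPKM + 1), two-sided, over the 9818 genes averaging 1 FPKM or more, with Benjamini-Hochberg adjustment over all of them and a threshold of 0.05. The pseudocount understates fold changes of low genes. Differences are signed as ACSS2-HKO less ACSS2-flox. Exact permutation tests over the 20 arrangements were two-sided. The limma and voom steps were tested on simulated counts. Adjusted p-values of single members are limma's.

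The members and lists were chosen with earlier results of these data known. Per-library values are given for Acss2, for members outside the enzyme lists, for members at an unadjusted p under 0.05 or without overlap, and for the 3 of smallest p in each enzyme list. Among other pathway genes the 4 of smallest p per direction are named. Further enzyme genes were described after their values were seen. Alternatives were pseudocounts of 0.1 and 5, no filter and a filter at 5 FPKM, median-ratio and TMM scaling (trimmed mean of M-values, written for this purpose), no trend, the replicate number as a block and libraries left out. Voom and a loess correction for gene length (span 0.5) were added after seeing the data. Gene coordinates are RefSeq's on GRCm38.p6, matched by the table's gene identifiers, and shared exons and similar transcripts (at least 95% identity over 200 bases) are from GENCODE M21.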

Additional observations from a re-analysis of the deposited data

How the results depend on the processing

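No member passed the adjusted threshold under any alternative, and the lowest adjusted p was 0.417. Over all genes the count of calls was 0 to 3 with single libraries left out and 4 with the replicate number as a block, none of them members. Deviations of same-numbered libraries correlated at 0.0132, 0.0032 and -0.0627, and those of differently numbered libraries at -0.17 to 0.154. With 3 libraries a group these values cannot tell whether the replicate numbers pair the samples.

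At the unadjusted threshold the count of higher members was 0 with median-ratio scaling, TMM scaling, the replicate block, voom and the gene length correction. In the same order 3.23%, 3.32%, 6.7%, 5.71% and 4.01% of all tested genes were higher. With single libraries left out the count was 0 to 1, against 2.87% to 5.9% of all tested genes. The count of lower members was 2 to 9 when each library was dropped, with 9 without ACSS2-flox replicate 3 (29%, against 1.48% of all tested genes). Without ACSS2-flox replicate 1 it was 2 (6.45%, against 4.69% of all tested genes). Without overlap, the count of higher members was 0 with median-ratio and TMM scaling, against 6.37% and 6.39% of all tested genes. It was 1 to 4 with single libraries left out and 2 with both distant libraries (ACSS2-HKO replicate 3, ACSS2-flox replicate 1) removed. That of lower members was 3 to 13 and 5. With both removed, 6.45% of members were higher, against 23.4% of all tested genes, and 16.1% were lower, against 17.7%. The 4 higher members came without ACSS2-flox replicate 3 (12.9%, against 21.8% of all tested genes). The 13 came without ACSS2-flox replicate 3 (41.9%, against 4.48% of all tested genes), while without ACSS2-flox replicate 1 the lower share was 12.9% of members and 14.6% of all tested genes. Dropping each library in turn gave enzyme medians of -0.661 to -0.124.

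Of 523 member fold changes under alternatives 26 changed sign, in 10 members, and the cause was not tested. With single libraries left out the ranges were -0.0122 to 0.404 for Abca1, -0.161 to 0.353 for Dhcr7, -0.531 to 0.332 for Idi1, -0.19 to 0.17 for Lbr, -0.751 to 0.604 for Mvd, -0.658 to 0.00354 for Mvk, -0.0591 to 0.701 for Mylip, -0.764 to 0.0658 for Nsdhl, -0.335 to 0.182 for Scap and -0.405 to 0.0548 for Tm7sf2. Without both distant libraries Abca1 read -0.139, Lbr -0.359 and Mvd 0.239. Dhcr7 read -0.0417 with median-ratio and -0.0417 with TMM scaling, and Lbr -0.0701 and -0.0705. With the gene length correction Dhcr7 read -0.00679 and Lbr -0.0804. The table gives 3 libraries a group, which limits the exact permutation test to a smallest p of 0.1.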
